A study of Mus musculus with 14 samples.

Results

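Complement in the irradiated mouse heart was followed through 9 genes, taken by symbol from the deposited gene counts: C1qa, C1qb, C1qc, C2, C3, C4b, Cfb, Serping1 and C3ar1. All 9 were found among the 54532 genes of the table, and all 9 were among the 16034 genes that passed the filter on low counts and were tested. Bulk RNA was measured in heart tissue of 14 male C57BL/6J mice (genotype WT), 1 library per mouse, which were 8 weeks old at the start. Hearts were collected 1 day or 6 weeks after 30 Gy of 60Co γ-rays given under pentobarbital anaesthesia to the anterior chest, with the rest of the body shielded (IRR_1d, n = 3; IRR_6w, n = 4), and from unirradiated mice at the same times (Control_1d, n = 3; Control_6w, n = 4). The chest field also takes in lung, thymus and chest wall, and which parts of each heart were taken is not given in the sources used here. No batch, litter or processing day was given by the labels.

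Complement is a cascade of proteins that tags cells and debris for uptake, draws in leukocytes and can lyse membranes. In the classical pathway the C1q complex, built from A, B and C chains encoded by C1qa, C1qb and C1qc, binds antibody or altered surfaces, and its proteases then cut C4 and C2 to form a convertase that cuts C3. The alternative pathway makes its convertase from C3 and factor B (Cfb), Serping1 encodes the C1 inhibitor that blocks the C1 proteases, and C3ar1 encodes the receptor for the fragment C3a. C1q chains are made mainly by macrophages in most tissues, whereas C3, C4, C2, factor B and C1 inhibitor come largely from liver but are also made locally by fibroblasts, endothelium and macrophages.

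Libraries held 13336746 to 16837265 counts, and levels below are counts relative to library size (CPM), scaled with edgeR's TMM factors (0.726 to 1.25). The 5 cardiomyocyte markers (Myh6, Tnnt2, Actc1, Ryr2, Myl2) were detected in every library, with a sum of 3541 to 33425 CPM. Several libraries stood apart. Control_6w replicate 3 had the lowest cardiomyocyte sum and 2559 CPM of thymocyte markers, and IRR_6w replicate 1 carried 355 CPM of lung epithelium, 2822 CPM of atrium, 983 CPM of brown fat and 899 CPM of white fat markers. IRR_1d replicate 3 held 1168 CPM of atrium and 305 CPM of white fat markers. Of the genes at 2 to 5 CPM in the other libraries, 39.7% were at 0 in Control_1d replicate 1, 30.2% in IRR_6w replicate 3 and 14.8% in IRR_6w replicate 4, against at most 8.15% in the rest. Fewer cells of a type and less RNA per cell cannot be told apart in such bulk libraries.

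At 6 weeks, all 9 complement genes had a higher estimate in irradiated than in control hearts, and C4b, the target of the C1 protease and a part of the C3 convertase, was the member that passed the test. C4b was 12.5-fold higher in IRR_6w (297 ± 178 CPM, SD, n = 4) than in Control_6w (23.8 ± 9.51 CPM, n = 4). The estimates for C1qa (2.13-fold), C1qb (2.52-fold), C3ar1 (3.06-fold), C2 (2.86-fold), C3 (3.50-fold) and Cfb (16.5-fold) were also above 2, and none of these passed the adjusted test. Cfb had few counts and passed the filter on low counts only through its IRR_6w libraries. At 1 day the estimates were again above 0 for 9 of 9 members, with C4b at 4.46-fold, and no member passed.

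The level of C4b was low in every unirradiated heart. It stood at 34.0, 29.4 and 20.3 CPM in Control_1d replicates 1 to 3 and at 17.4, 17.3, 23.0 and 37.5 CPM in Control_6w replicates 1 to 4. In IRR_1d it reached 69.3, 43.1 and 261 CPM, and in IRR_6w it reached 563, 188, 217 and 219 CPM. Every irradiated library therefore lay above every control library of its time, and the lowest IRR_6w value was 5.01 times the highest Control_6w value. The log2 fold change at 6 weeks was 3.64 (SE 0.57, edgeR quasi-likelihood test, adjusted p = 0.0188), and a two-sided exact permutation test gave p = 0.0286, the smallest that 4 against 4 allows. The call was lost without Control_6w replicate 1 (adjusted p = 0.0965), Control_6w replicate 2 (0.126), IRR_6w replicate 3 (0.0642) or IRR_6w replicate 4 (0.0567), while the log2 fold change stayed between 3.13 and 3.95 in all 14 fits that left out 1 library. Without IRR_6w replicate 1, the highest library, it was 3.13 (adjusted p = 0.0155), and without both IRR_6w replicate 1 and Control_6w replicate 3 it was 3.12 (adjusted p = 0.0269). At 1 day the log2 fold change of C4b was 2.16 (SE 0.62, unadjusted p = 0.00339, adjusted p = 1), the exact test gave p = 0.1, the smallest that 3 against 3 allows, and the estimate was 1.02 without IRR_1d replicate 3.

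**Figure D1:**
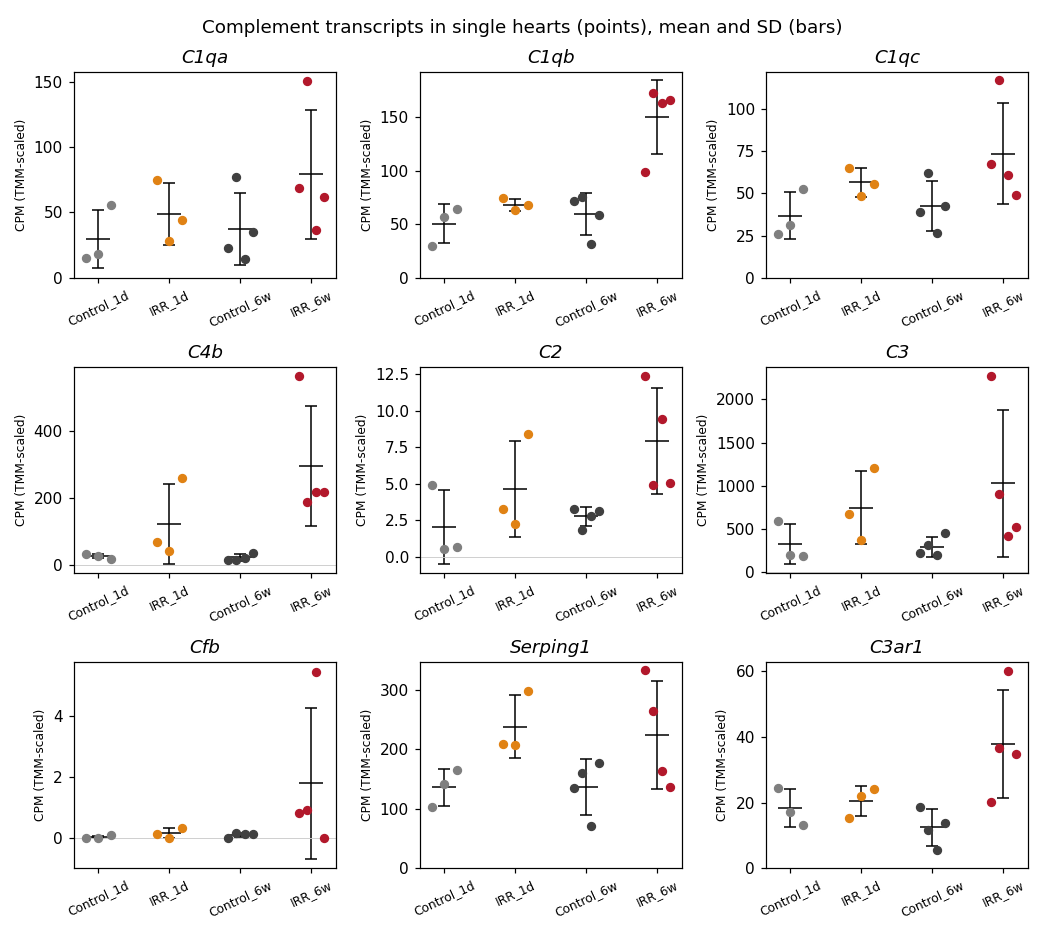
TMM-scaled CPM (linear axes) of the 9 complement genes in each of the 14 libraries (points), with the group mean and SD (bars). C4b lies between 188 and 563 CPM in the 4 IRR_6w libraries and between 17.3 and 37.5 CPM in the 4 Control_6w libraries, while Cfb stays under 1 CPM in all libraries but IRR_6w replicate 3.

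C4b (ENSMUSG00000073418) lies at chr17:34728380-34743882 on the minus strand of mm10 and has a closely related copy, C4a, in the same region. Of the 150-base windows along the C4b transcript, 8.26% also occur in C4a, and of the 50-base windows 35.2%. A single read lying wholly in such a stretch cannot be assigned by its own sequence. Whether the other read of its pair would place it was not examined. C4a itself had 0 to 25 counts per library, and the sum of both genes gave a log2 fold change of 3.61 (adjusted p = 0.0188) at 6 weeks. The 6 markers of hepatocytes, which make most plasma C4, summed to between 0 and 1.57 CPM in IRR_6w, against 0.612 to 12.8 CPM in Control_6w. Alb had 0 counts in IRR_6w replicates 3 and 4, but 30.2% and 14.8% of low genes were at 0 in these libraries. A 0 there therefore says little about liver RNA. The highest C4b level of each irradiated group was in the library with the most white fat markers, IRR_6w replicate 1 (899 CPM of markers, 563 CPM of C4b) and IRR_1d replicate 3 (305 and 261 CPM), while these markers summed to between 0 and 6.0 CPM in IRR_6w replicates 2 to 4, where C4b stood at 188 to 219 CPM. Control_6w replicate 3, with 363 CPM of white fat markers, had 23.0 CPM of C4b. IRR_6w replicate 1 and IRR_1d replicate 3 also held the most atrium markers of their groups (2822 and 1168 CPM). The same held for mesothelium markers (Msln, Upk3b, Lrrn4, Wt1), at 355 and 195 CPM. The part of liver, fat, atrial or mesothelial RNA in the C4b levels was not tested.

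C2 is the protease subunit that pairs with C4b. It was a low transcript, at 4.95, 0.503 and 0.693 CPM in Control_1d, 3.29, 2.23 and 8.39 CPM in IRR_1d, 3.27, 1.84, 2.79 and 3.17 CPM in Control_6w, and 12.4, 4.94, 9.41 and 5.04 CPM in IRR_6w. The 6-week groups did not overlap, whereas the 1-day groups did, with Control_1d replicate 1 above 2 of the 3 IRR_1d libraries. The 6-week log2 fold change was 1.52 (SE 0.72, adjusted p = 0.573, edgeR), with an exact permutation p = 0.0286, and that at 1 day was 1.16 (SE 0.82). At 1 day the estimate for C2 was 2.93 without Control_1d replicate 1, a library in which hepatocyte markers summed to 70.3 CPM and many low genes were at 0. The part of these features in the result was not tested.

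C3, the protein on which all 3 activation routes converge, was the most abundant member by CPM. Its level was 593, 202 and 188 CPM in Control_1d, 667, 371 and 1203 CPM in IRR_1d, 218, 311, 193 and 453 CPM in Control_6w, and 2268, 907, 415 and 526 CPM in IRR_6w. Irradiated and control libraries overlapped at both times. The log2 fold change was 1.81 (SE 0.58, adjusted p = 0.282, edgeR; exact permutation p = 0.0571) at 6 weeks and 1.19 (SE 0.66) at 1 day. The highest values came from IRR_6w replicate 1 and IRR_1d replicate 3, the libraries with the most atrium markers, and without the one of its time the estimate was 1.07 at 6 weeks and 0.67 at 1 day. Both also held white fat markers (899 and 305 CPM), but Control_6w replicate 3, with 363 CPM of those, had 193 CPM of C3. Mesothelium markers ordered the libraries of each group as C3 did, except for IRR_6w replicates 3 and 4. They were highest in IRR_6w replicate 1 (355 CPM), IRR_1d replicate 3 (195 CPM), Control_1d replicate 1 (156 CPM) and Control_6w replicate 4 (83.2 CPM). Atrium markers were at only 15.9 CPM in Control_1d replicate 1. Whether those tissues account for the difference was not tested. C3 lies at chr17:57203970-57228136 on the minus strand.

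Cfb, the alternative-pathway partner of C3, had few counts in these hearts. It had 0, 0 and 1 counts in Control_1d, 2, 0 and 5 counts in IRR_1d, 0, 2, 2 and 2 counts in Control_6w, and 14, 15, 86 and 0 counts in IRR_6w. Among the IRR_6w libraries, replicate 3 alone held 86 of 115 counts and replicate 4 held none, so the groups overlapped. Summed over the libraries, the scaled ratio at 6 weeks was 15.9 (exact 95% interval 7.08 to 44.2, from 115 against 6 counts), and without IRR_6w replicate 3 it was 5.15 (2.10 to 15.2, from 29 against 6 counts). At 1 day it was 6.43 (0.826 to 290, from 7 against 1 counts). These intervals cover counting error only and not the spread between mice: with that spread, edgeR gave a log2 fold change of 4.04 (SE 1.61, adjusted p = 0.459) at 6 weeks, and the exact permutation p was 0.143. Cfb passed the filter on low counts only through its IRR_6w libraries. The direction of its 6-week estimates was thus set by that filter, and the ratios and intervals are descriptions only.

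Cfb and C2 are neighbours, and the counts of both have a further limit. Cfb lies at chr17:34856374-34862518 and C2 at chr17:34862604-34898265, both on the minus strand, and together with C4b they fall within 170 kb. Another gene model on the same strand, Gm20547, spans both and shares 79.5% of the exonic bases of Cfb and 42.8% of those of C2. Gm20547 had 0 counts in every library, and only 579 of 2825 exonic bases of Cfb belong to Cfb alone. How reads from shared bases were counted is not given in the sources used here, so the levels of Cfb and C2 may be too low, and the comparison of Cfb with other genes is uncertain. With the counts of C2, Cfb and Gm20547 summed, the 6-week log2 fold change was 1.76 (adjusted p = 0.475).

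The C1q chains lie side by side on chromosome 4, at chr4:136895917-136898803 (C1qa), chr4:136889804-136893065 (C1qc) and chr4:136880129-136886187 (C1qb), within 18.7 kb and all on the minus strand, and none of their exonic bases is shared with another gene. Reference sequence upstream of C1qb and C1qc is shown because the pair is neighbouring and is compared below (RefSeq, GRCm38.p6, minus strand, 5′ to 3′ along the gene). For C1qb it is chr4:136886201-136886450, the 250 bases before the RefSeq start, and for C1qc it is chr4:136893066-136893164, the 99 bases of that 250-base window that lie outside the deposited gene model. Capitals mark a match to the PU.1 box GAGGAA on either strand, PU.1 being a transcription factor of macrophages.
C1qb: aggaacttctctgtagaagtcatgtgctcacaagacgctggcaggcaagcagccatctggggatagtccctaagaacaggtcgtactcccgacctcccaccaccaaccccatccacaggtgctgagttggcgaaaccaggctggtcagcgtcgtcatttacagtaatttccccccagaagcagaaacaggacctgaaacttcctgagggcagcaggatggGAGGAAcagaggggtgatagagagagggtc
C1qc: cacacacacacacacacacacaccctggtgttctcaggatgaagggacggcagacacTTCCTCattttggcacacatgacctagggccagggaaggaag
The match began 30 bases before the RefSeq start of C1qb, on the gene's strand, and 193 bases before that of C1qc, on the opposite strand. It was present in 23.3% of 32851 promoter windows of the same 250 bases. RefSeq windows were matched for 4 of the 9 members (C1qb, C1qc, C3 and C3ar1), and C3 and C3ar1 had no such match. The interferon-response core GAAANNGAAA (2.98% of promoters) and the STAT site TTCNNNGAA (7.02%) were in none of the 4 windows, and GGGNNNNNCC, the half-sites of NF-kB (45.8%), was in all 4. A match of letters is a description and not a bound site, and motifs were searched on both strands with overlaps counted.

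C1qb was the C1q chain whose 6-week groups did not overlap. Its level was 30.0, 56.8 and 64.6 CPM in Control_1d, 74.0, 62.8 and 67.7 CPM in IRR_1d, 71.9, 75.6, 31.8 and 58.9 CPM in Control_6w, and 98.6, 173, 163 and 166 CPM in IRR_6w. The lowest IRR_6w library was above all 10 others. The 6-week log2 fold change was 1.33 (SE 0.31, adjusted p = 0.104, edgeR; exact permutation p = 0.0286). It was called without IRR_6w replicate 1, at 1.49 (adjusted p = 0.0484), and without both that library and Control_6w replicate 3, at 1.28 (adjusted p = 0.0380). At 1 day the log2 fold change was 0.44 (SE 0.35).

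At 6 weeks C1qa and C1qc had smaller estimates than C1qb, and neither passed the adjusted test. C1qa was at 15.0, 18.5 and 55.5 CPM in Control_1d, 74.6, 27.9 and 43.9 CPM in IRR_1d, 22.5, 76.8, 14.7 and 35.2 CPM in Control_6w, and 68.6, 150, 36.4 and 61.7 CPM in IRR_6w. C1qc was at 26.2, 31.4 and 52.8 CPM in Control_1d, 65.3, 48.6 and 55.9 CPM in IRR_1d, 39.1, 62.1, 26.5 and 42.4 CPM in Control_6w, and 67.3, 117, 60.9 and 49.3 CPM in IRR_6w. Both chains overlapped between irradiated and control hearts at both times. The 6-week log2 fold changes were 1.09 (SE 0.58, adjusted p = 0.631) for C1qa and 0.79 (SE 0.33, adjusted p = 0.479) for C1qc, and those at 1 day were 0.72 (SE 0.66) and 0.62 (SE 0.38).

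The 3 chains form 1 protein, and their transcripts kept unequal proportions. On the FPKM scale (CPM per kilobase of the deposited gene length), the ratio of C1qb to C1qa ranged from 0.942 to 4.27 over the 14 libraries. The log2 ratio differed by 0.20 between IRR_6w and Control_6w for C1qb to C1qa (exact permutation p = 0.743) and by -0.39 for C1qc to C1qa (p = 0.257). The ratio of C1qb to C1qc was singled out after its values were seen: it lay between 2.01 and 3.26 in the 10 libraries outside IRR_6w and at 2.60, 2.61, 4.75 and 5.97 in IRR_6w replicates 1 to 4 (exact permutation p = 0.171 against Control_6w). Replicates 3 and 4, the high ones, are also the IRR_6w libraries in which 30.2% and 14.8% of low genes were at 0, and the part of this in the ratio was not tested.

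**Figure D2:**
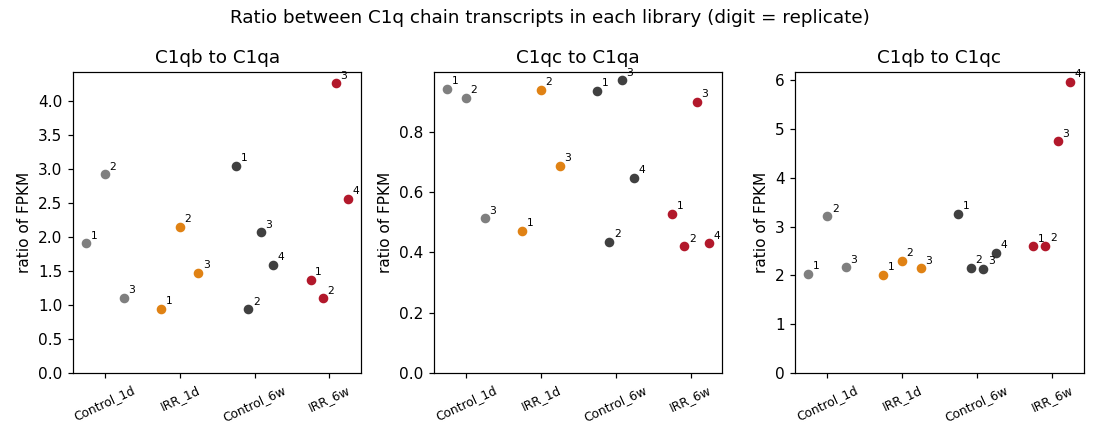
Ratio of FPKM between the C1q chain transcripts (linear axes) in each library, with digits for the replicate number. The ratio of C1qb to C1qc is 4.75 and 5.97 in IRR_6w replicates 3 and 4 and at most 3.26 in the libraries outside IRR_6w.

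C3ar1, the C3a receptor of myeloid cells, had its highest values in irradiated hearts at 6 weeks. It stood at 24.5, 17.1 and 13.0 CPM in Control_1d, 15.2, 21.9 and 24.0 CPM in IRR_1d, 18.7, 11.6, 5.41 and 13.8 CPM in Control_6w, and 20.1, 36.6, 60.0 and 34.8 CPM in IRR_6w. The 6-week groups did not overlap, but IRR_6w replicate 1 was only slightly above Control_6w replicate 1, and the 1-day groups were interleaved. The log2 fold change was 1.61 (SE 0.40, adjusted p = 0.118, edgeR; exact permutation p = 0.0286) at 6 weeks and 0.16 (SE 0.45) at 1 day. C3ar1 lies at chr6:122847138-122856161 on the minus strand.

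Macrophage markers summed to more in IRR_6w than in Control_6w, with no overlap, as the levels of C1qb and C3ar1 did. All 8 markers of that list (Adgre1, Csf1r, Cd68, Fcgr1, Mrc1, Cd163, Lyz2, Cx3cr1) were detected in every library, and their sum, led by Lyz2, was 999 to 1291 CPM in IRR_6w against 238 to 629 CPM in Control_6w. The estimate was higher for 7 of the 8 and lower for Cd163, at 32.5, 15.8, 11.8 and 18.5 CPM in IRR_6w and 51.1, 35.4, 16.4 and 47.0 CPM in Control_6w. None of the 8 passed the adjusted edgeR test. At 1 day the sums overlapped, at 599 to 701 CPM in IRR_1d and 570 to 845 CPM in Control_1d. The mean log2 level of the C1q chains minus that of the macrophage list was 0.74 ± 0.35 (SD, n = 4) in IRR_6w and 0.66 ± 0.44 (SD, n = 4) in Control_6w. Interferon-stimulated genes, 6 of 6 detected in every library, summed to 277 to 750 CPM in IRR_6w against 68.7 to 155 CPM in Control_6w, and to 178 to 808 CPM in IRR_1d against 86.3 to 124 CPM in Control_1d. The part of either list in the complement results was not tested.

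Serping1, the C1 inhibitor, was the member besides C4b whose 1-day groups did not overlap. It was at 102, 142 and 164 CPM in Control_1d, 209, 207 and 299 CPM in IRR_1d, 135, 161, 70.4 and 177 CPM in Control_6w, and 333, 264, 163 and 136 CPM in IRR_6w. At 6 weeks IRR_6w replicates 3 and 4 fell within the control range. The log2 fold change was 0.81 (SE 0.39, adjusted p = 1, edgeR; exact permutation p = 0.1) at 1 day and 0.72 (SE 0.34, adjusted p = 0.569; exact p = 0.171) at 6 weeks. Without IRR_6w replicate 1 the 6-week estimate was 0.47. Serping1 lies at chr2:84765387-84775444 on the minus strand.

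Counted over the members, 1 of 9 was called at 6 weeks (fold above 2 and adjusted p under 0.05, higher; C4b) where 0.237% of all tested genes were. At an unadjusted p under 0.05 with the same fold limit, 5 of 9 passed (C4b, C1qb, C3ar1, C3 and Cfb) against 3.69% of all genes, and 4 of 9 did not overlap between groups (C4b, C1qb, C3ar1 and C2) against 4.08%. Cfb passed the filter on low counts only through its IRR_6w libraries. Its higher 6-week estimate was thus set by that filter and adds no support to these counts or to the members' median. The members were also chosen with earlier results of these data known. The median log2 fold change of the members was 1.52, that of all 16034 tested genes was -0.09, and 43.8% of all genes had an estimate above 0. DESeq2 called 3 members (C4b, C1qb and C3ar1). Here and below, the share of all genes that DESeq2 called is not given, so its calls are not read as particular to these genes. At 1 day edgeR called 0 of 9, where 0.0249% of all genes were called higher. At an unadjusted p under 0.05 it was 1 of 9 (C4b; 1.56% of all genes), 2 of 9 did not overlap (C4b and Serping1; 6.52%), and DESeq2 called 0 on all libraries and 1 (C4b) on the 1-day groups alone. The members' median at 1 day was 0.81 against 0.06 for all genes, of which 55.1% were above 0.

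**Figure D3:**
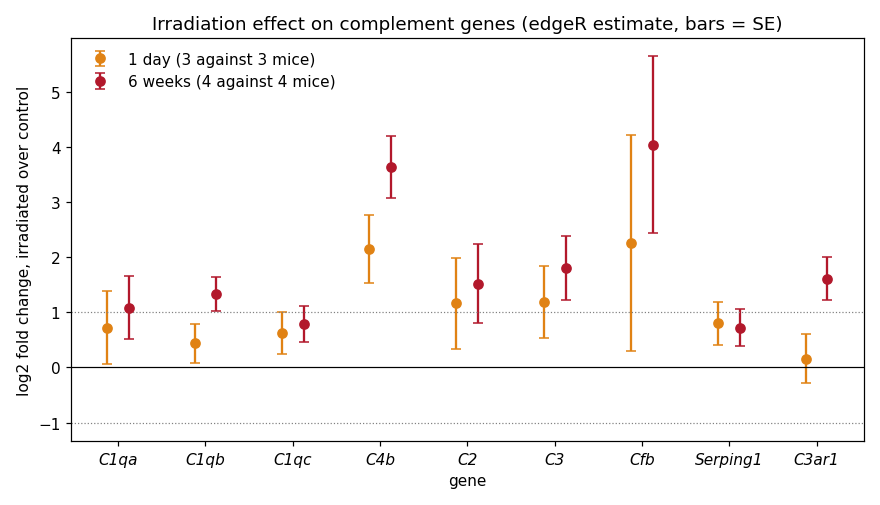
Log2 fold change of irradiated over control hearts for the 9 complement genes (edgeR estimate, bars are SE) at 1 day (3 against 3 mice) and 6 weeks (4 against 4 mice), with dotted lines at a fold of 2 in either direction. All points lie above 0, and C4b at 6 weeks (3.64) is the called value.

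In unirradiated hearts no difference with time passed the test for these genes. Between Control_6w and Control_1d, edgeR called 0 of 9, none passed at an unadjusted p under 0.05 with the fold limit, DESeq2 called none, and no member's groups failed to overlap. Over all genes, the shares in the higher direction were 0%, 2.72% unadjusted and 3.39% without overlap. The largest estimates were 1.67 (SE 1.89) for Cfb, which rests on at most 2 counts per library, and -0.56 (SE 0.42) for C3ar1, and the members' median was 0.21 against 0.12 for all genes. Between the irradiated groups, 8 of 9 estimates were higher at 6 weeks (48.5% of all genes) and the median was 0.77 against -0.02 for all genes. Cfb, among the 8, passed the filter on low counts only through its IRR_6w libraries. Its higher estimate was thus set by that filter and adds no support to this count or median. In this comparison edgeR called 0 of 9 (0.0312%), 2 passed unadjusted (C1qb and C4b, 3.06%), and C1qb did not overlap (5.47%). The log2 fold change of C1qb between IRR_6w and IRR_1d was 1.14 (SE 0.34, adjusted p = 0.530; exact permutation p = 0.0571), and DESeq2 on these 2 groups alone called it (adjusted p = 0.00545). C4b differed by 1.25 (SE 0.57, adjusted p = 0.847) and Serping1 by -0.09 (SE 0.36).

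Whether irradiation acted differently at 6 weeks than at 1 day was tested as an interaction. No member passed (0 of 9 with adjusted p under 0.05, where 0% of all genes passed), DESeq2 called none, and C3ar1 was the member past an unadjusted p under 0.05 (1.98% of all genes). The 6-week effect of C3ar1 exceeded its 1-day effect by 1.45 on the log2 scale (SE 0.59, unadjusted p = 0.0280, adjusted p = 0.990). That of C4b did so by 1.49 (SE 0.79) and that of C1qb by 0.90 (SE 0.47), and Serping1 had nearly equal effects at both times (difference -0.09, SE 0.51).

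Compared per length, the order of the members by mean differed between IRR_6w and Control_6w and was the same in IRR_1d and Control_1d. C3 (63.7 FPKM) stood above Serping1 (58.6 FPKM) in Control_1d but not in Control_6w. In Control_6w, Serping1 (58.5 ± 20.2 FPKM, SD, n = 4), C3 (57.1 ± 22.9) and C1qb (54.7 ± 18.2) did not differ beyond their spread, followed by C1qa (35.9 ± 26.6) and C1qc (22.0 ± 7.64). C4b (4.17 ± 1.67), C3ar1 (2.88 ± 1.28), C2 (0.715 ± 0.169) and Cfb (0.0356 ± 0.0244) made up the low end. In IRR_6w the order was C3 (200 ± 166 FPKM), C1qb (138 ± 31.7), Serping1 (96.4 ± 39.3), C1qa (76.2 ± 47.4), C4b (52.1 ± 31.3), C1qc (38.2 ± 15.6), C3ar1 (8.80 ± 3.83), C2 (2.05 ± 0.934) and Cfb (0.635 ± 0.879), with overlap between each neighbour from C3 to C1qc. C4b thus had a mean between those of C1qa and C1qc in IRR_6w and a mean below each C1q chain in Control_6w. The place of Cfb and C2 in this order is subject to the limit on their counts given above.

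The rest of the pathway was read from 46 further complement genes, of which 30 were tested. None was called by edgeR or limma voom in any comparison, while DESeq2 on all libraries called Cd55 at 6 weeks and Cd93 and Itgax between the irradiated groups. At 6 weeks 22 of 30 estimates were higher and 8 lower (median log2 fold change 0.55), where 43.8% of all genes were higher. C6, among the 22, had 70, 28, 158 and 41 counts in IRR_6w and passed the filter on low counts only through those libraries. Its higher estimate was thus set by that filter and adds no support to this count or median. Of the 30, 6 passed at an unadjusted p under 0.05 with the fold limit, all higher (3.69% of all genes), and 3 did not overlap higher (4.08%). The smallest p values belonged to Cd55 (decay-accelerating factor, which takes convertases apart), at 1.25 (SE 0.29, adjusted p = 0.104), to the complement receptor integrin chain Itgam, at 1.56 (SE 0.50, adjusted p = 0.285), to the C5a receptor C5ar1, at 1.33 (SE 0.44, adjusted p = 0.316), and to Cd93, an endothelial and myeloid glycoprotein once described as a C1q receptor, at 1.16 (SE 0.41, adjusted p = 0.368). Cd55 stood at 24.4, 16.8, 17.4 and 23.7 CPM in Control_6w and at 56.1, 31.6, 49.6 and 58.5 CPM in IRR_6w, with no overlap. On the lower side, the regulator Cd46 was at -1.12 (SE 0.60, adjusted p = 0.634), from 2.60 to 7.63 CPM in Control_6w and from 1.20 to 2.42 CPM in IRR_6w.

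By role at 6 weeks, estimates were higher for 2 of 2 classical initiators, 3 of 4 lectin pathway genes, 2 of 2 convertase genes, 4 of 4 soluble regulators and 8 of 10 receptors, and for 1 of 3 terminal components and 2 of 5 membrane regulators, with no test between roles. The higher terminal component was C6, whose direction was set by the filter on low counts. The C1 proteases C1ra and C1s1 had log2 fold changes of 0.99 (SE 0.54) and 0.82 (SE 0.32), and properdin (Cfp), which stabilizes the alternative convertase, of 1.17 (SE 0.42). Cfd, the protease that activates factor B and an adipocyte product, was at 995 CPM in IRR_6w replicate 1 and 90.8 CPM in Control_6w replicate 3 and between 0 and 16.6 CPM in the other 6-week libraries, matching the 2 libraries with the most white fat markers. The terminal component C7 was at -0.31 (SE 0.54) and the membrane-attack inhibitor Cd59a at -0.15 (SE 0.24).

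**Figure D4:**
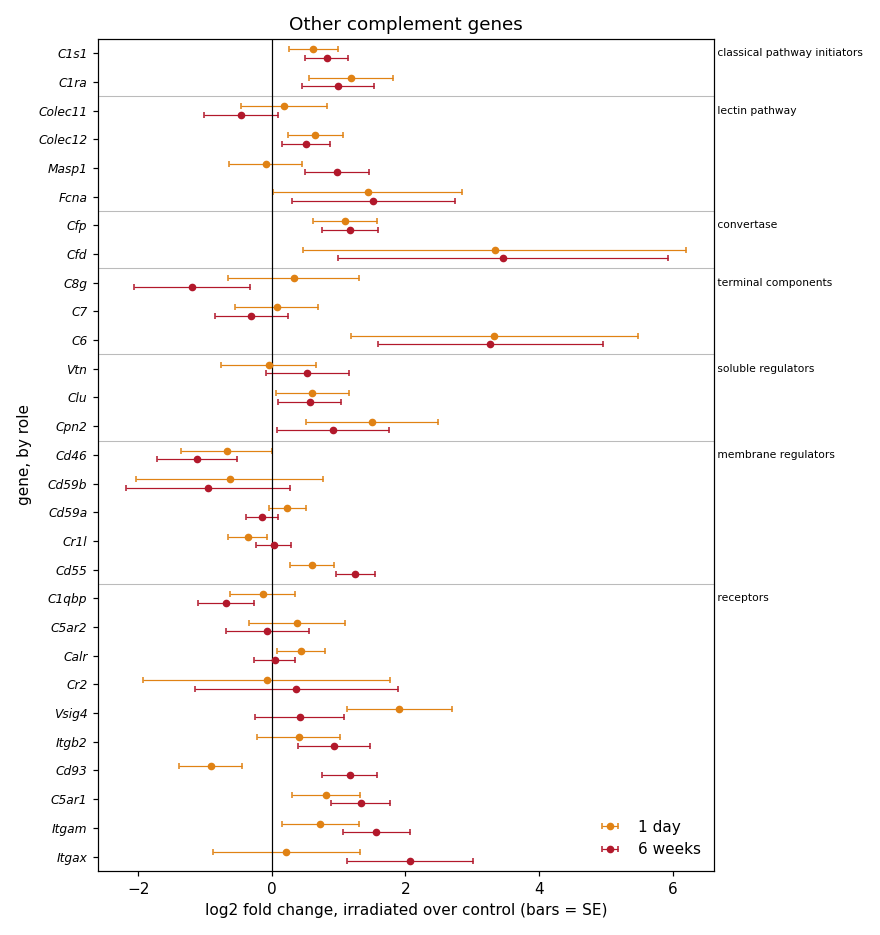
Log2 fold change of irradiated over control hearts for other tested complement genes, grouped by role, at 1 day and 6 weeks (edgeR estimate, bars are SE). Cd55 at 6 weeks (1.25) has the smallest p, and Cd93 is below 0 at 1 day (-0.92) and above 0 at 6 weeks (1.16).

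At 1 day, 22 of 30 estimates were again higher (55.1% of all genes), with 2 past an unadjusted p under 0.05 and the fold limit, both higher (1.56%). These were the macrophage complement receptor Vsig4, at 1.91 (SE 0.78), and Cfp, at 1.10 (SE 0.48), both with adjusted p = 1. C1ra, at 1.18 (SE 0.63, adjusted p = 1), was among those with the next smallest p. Cd93 was lower in every IRR_1d library (139, 215 and 113 CPM) than in every Control_1d library (329, 269 and 284 CPM), at -0.92 (SE 0.47, adjusted p = 1). The change of the Cd93 effect from 1 day to 6 weeks was 2.08 (SE 0.63, unadjusted p = 0.00485, adjusted p = 0.990). Between the irradiated groups, Cd93 (1.68, SE 0.46), Itgax (3.55, SE 1.14) and Itgb2 (1.47, SE 0.60) were higher at 6 weeks and Vsig4 (-1.96, SE 0.71) lower, with adjusted p from 0.435 to 0.807, and these were the 4 past an unadjusted p under 0.05 with the fold limit (3.06% of all genes in the higher direction). Of the control groups, Masp1 (-1.03, SE 0.51) and Cd55 (-0.66, SE 0.31) had the smallest p, both with adjusted p = 0.902 and neither past the unadjusted limits.

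Over the 14 libraries, the 5 genes outside the complement set whose log2 CPM was most like the mean of the C1q chains were Vsir (r = 0.91), Unc93b1 (0.90), Fcgr3 (0.90), Atxn1l (0.88) and Agrn (0.88). Those most like C4b were Fn1, encoding fibronectin (r = 0.96), Piezo2 (0.94), Dse (0.93), Ptprj (0.93) and Tmem176a (0.92). Spearman coefficients were 0.82 to 0.92 for these 10 genes. The libraries share group, depth and tissue composition, and the genes were chosen as the highest of all tested, so the coefficients are descriptions.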

How the data were processed

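RNA of 14 hearts was sequenced as paired-end Illumina libraries. The authors checked reads with FastQC 0.11.8, trimmed them with Trim Galore 0.6.1, aligned them to mm10 with STAR 2.5.0a and counted them with HTSeq, and they deposited whole-number counts per gene with coordinates and gene lengths. Strandedness, counting mode and annotation release are not given in the sources used here, although all member coordinates equal those of GENCODE vM21.

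From these counts, edgeR 4.0.16 (R 4.3.3) fitted 1 quasi-likelihood model of the 4 groups after filterByExpr and TMM, with Benjamini-Hochberg adjustment over 16034 genes. A gene was called at a fold above 2 or below 0.5 and adjusted p under 0.05. SE is the estimate divided by the square root of its F. Exact permutation tests were two-sided, on log2(CPM + 0.5). FPKM was computed as scaled CPM per kilobase. DESeq2 1.42.0, limma 3.58.1 voom, other scalings and filters, and leaving out libraries were alternatives. The script was tested on simulated data. All members were named, and of the other complement genes up to 4 per direction with the smallest p, of which 1 is counted but not reported here by name. The members and gene lists were chosen with earlier results of these data known. Replicate libraries differed from each other by far more than sampling noise. Same-numbered libraries did not deviate together, so numbers were not treated as pairs. RefSeq promoter windows were available here for 4 members.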

Additional observations from a re-analysis of the deposited data

Results flagged for a closer look

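In IRR_6w, 3 values lay far from the other libraries of their group by Dixon's criterion for groups of 4, among 24 sets of values tried (9 genes and 3 C1q ratios in both 6-week groups). C1qb was lowest in IRR_6w replicate 1, at 98.6 CPM against 163 CPM in the nearest library. C4b was highest in the same library, at 563 CPM against 219 CPM. Cfb was highest in IRR_6w replicate 3, at 5.47 CPM against 0.903 CPM. By chance about 1 in 20 such groups would be picked out, and groups of 3 were not tried. Of the 9 tested changes of the irradiation effect between 1 day and 6 weeks, none passed the adjusted threshold.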

How the results depend on the processing

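Counts of called members at 6 weeks moved from 1 to 2 with library totals in place of TMM, to 3 with DESeq2 on all libraries and on the 2 groups alone, and to 3 without both Control_6w replicate 3 and IRR_6w replicate 1. They went to 5 with an unadjusted p, 0 with the replicate number as a block and 0 without the 3 libraries with most genes at 0 (Control_1d replicate 1, IRR_6w replicates 3 and 4; chosen after seeing the data), and ranged from 0 to 2 when 1 library was left out. In that last set of 11 libraries no gene was called and C4b was at 3.98 (adjusted p = 0.170). At 1 day the count was 1 with an unadjusted p and 1 with DESeq2 on the 2 groups alone. Between the irradiated groups it was 2 unadjusted, 1 with DESeq2 on the 2 groups alone and 1 without the 2 libraries that stood apart, and for the change in effect it was 1 unadjusted. The block left 15 of all genes called at 6 weeks against 41 without it. The same-numbered libraries correlated at -0.39 to 0.46 in their deviations at 6 weeks and at -0.22 to 0.07 at 1 day, so the numbers give no pairing. Most of these counts are given without the share of all genes called in the same setting, so they describe the settings and not the members. The causes of these changes were not tested.

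Estimates that changed sign were all uncalled. Scaling by library totals shifted the median of all genes by 0.23 at 6 weeks, 0.16 between controls and 0.32 between irradiated groups, and moved Serping1 to 0.13 between controls, 0.20 between irradiated groups and 0.0669 for the change in effect. C2's change in effect became -0.21 with voom, -0.12 with the block and -1.29 without the 3 libraries. C3 between controls became 0.0495 with the block and 0.59 without the 3 libraries. Without those 3 libraries C1qb between controls was -0.0295, and Serping1 was 0.33 between irradiated groups and 0.50 for the change in effect. Without the 2 libraries that stood apart, Serping1 between controls was 0.21, C3 between irradiated groups -0.28 and its change in effect -0.27. With 1 library left out, C3ar1 at 1 day ranged from -0.00276 to 0.44. Between controls, ranges were -0.29 to 1.18 (C1qa), -0.0293 to 0.47 (C1qb), -0.0225 to 0.58 (C1qc), -0.00857 to 2.19 (C2), -0.45 to 0.59 (C3) and -0.18 to 0.21 (Serping1). Between irradiated groups they were -0.28 to 0.99 (C3) and -0.34 to 0.11 (Serping1). For the change in effect they were -0.49 to 0.98 (C1qa), -0.21 to 0.39 (C1qc), -1.42 to 1.09 (C2), -0.13 to 1.14 (C3), -0.33 to 2.88 (Cfb) and -0.34 to 0.11 (Serping1). Cfb was not tested without IRR_6w replicate 1, 2 or 3. Depth limits Cfb and C2.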

Other observations

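Across the 14 libraries, C1qa and C1qc were the members most alike in log2 CPM (r = 0.94, and 0.92 after the group means were removed), followed by C3 and C4b (0.84 and 0.76) and C2 and C4b (0.80 and 0.67). C1qb tracked C2 at 0.39 over all libraries and at -0.58 within groups. These coefficients rest on libraries that share depth and tissue composition and are descriptions. All 9 members lie on the minus strand, as do 49.9% of the genes in the table.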
